A study of Mus musculus with 19 samples.

Results

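The integrated stress response genes described here are 45 mouse gene symbols chosen by name: the transcription factor gene Atf4, the other regulators and eIF2α kinases of the response, its feedback and stress target genes, genes of amino acid synthesis and transport, 2 genes of ER-associated degradation and 17 cytosolic aminoacyl-tRNA synthetases. Of these, 41 had a row among the 12629 genes of the deposited expression table, and Eif2ak4, Pycr1, Slc7a11 and Hars had none, so that their expression is not analysed here. RNA-seq was performed on GFP-positive dorsal root ganglion (DRG) neurons sorted by flow cytometry 8 weeks after adeno-associated virus injection into the left cervical DRGs. Neurons in the α9k1 groups received one virus for α9 integrin (gene Itga9) under a CAG promoter and another for kindlin-1 fused to GFP (gene Fermt1) under a CMV promoter, and control neurons received a membrane-targeted GFP virus under a CMV promoter. The dorsal root, which carries the central branch of the sensory axon, was crushed on the day of injection or left intact, which gave the groups GFP-naive (n = 5), GFP-crush (n = 4), α9k1-naive (n = 6) and α9k1-crush (n = 4).

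All 4 groups shared the injection, the sort and the time of harvest, and no group was without virus. Sorting was on GFP alone, so neurons of the α9k1 groups that carried kindlin-1 without α9 integrin were not removed. The ganglia of several cervical levels were pooled in a library, and the libraries are called biological replicates in the study's methods, whereas the labels tie none to an animal, so that p-values measure the spread between these libraries. The labels give C57BL/6 mice and the methods adult male Lewis rats. The reads were aligned to the mouse genome, and names and coordinates below are those of the mouse. As each library is a bulk sample, fewer cells of a type and less RNA per cell cannot be told apart.

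The integrated stress response is switched on when a kinase phosphorylates the translation initiation factor eIF2α, which lowers general protein synthesis while the mRNA of Atf4 is translated more. The ATF4 protein then raises transcription of genes for amino acid uptake and synthesis, for charging tRNAs with amino acids and for redox balance, together with Ddit3 (the factor CHOP) and Ppp1r15a (the phosphatase subunit GADD34, which restores eIF2α). In sensory neurons this response is known from axonal injury and from unfolded protein stress in the endoplasmic reticulum (ER).

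Many ATF4 targets carry a C/EBP-ATF response element near their start site, and stretches of 6 promoters with its core are shown as a sequence feature that some members of different roles share. The core TGATGNAA, in which N is any base, was searched on both strands from 250 bases before to 50 bases after each start site of RefSeq (GRCm38.p6). Of the 45 listed genes, 35 were matched in that table, with 40 windows, and 12 of them held the core. The core was in 12 of the 40 windows, or 30.0%, beside 3.97% of all 32851 windows. The 12 genes were Aars, Asns, Chac1, Gars, Herpud1, Iars, Pycr1, Slc7a11, Tars, Trib3, Vldlr and Yars. Among the matched genes without the core were Atf4, Ddit3, Ppp1r15a, Phgdh, Psat1 and Sars, and no window was matched for Vars and Wars. A match of letters is a description and not a binding site. The stretches below lie upstream of the start site, run 5′ to 3′ on the strand of the gene, and have the core in capitals, which reads TTNCATCA where it lies on the other strand.
Chac1: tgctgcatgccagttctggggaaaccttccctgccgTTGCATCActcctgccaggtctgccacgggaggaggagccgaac
Herpud1: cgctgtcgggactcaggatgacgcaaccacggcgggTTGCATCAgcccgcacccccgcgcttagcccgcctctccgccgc
Asns: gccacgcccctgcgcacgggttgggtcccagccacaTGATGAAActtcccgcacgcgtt
Aars: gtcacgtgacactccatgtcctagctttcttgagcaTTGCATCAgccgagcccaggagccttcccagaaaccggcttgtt
Gars: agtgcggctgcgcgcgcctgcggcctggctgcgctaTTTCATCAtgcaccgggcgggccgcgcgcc
Tars: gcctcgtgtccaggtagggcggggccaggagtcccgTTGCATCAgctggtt
The Chac1 stretch is chr2:119351013-119351092 (plus strand) with the core at -193 to -186 from the start site, and the Herpud1 stretch is chr8:94386281-94386360 (plus strand) with the core at -112 to -105. For Asns the stretch is chr6:7693210-7693268 (minus strand) with the core at -23 to -16. The synthetase stretches are chr8:111033694-111033773 (plus strand) for Aars, with the core at -112 to -105, chr6:55037935-55038000 (plus strand) for Gars, with the core at -30 to -23, and chr15:11399659-11399709 (minus strand) for Tars, with the core at -15 to -8.

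Libraries held 36.4 to 87.6 M read pairs, of whose reads 47.5% to 54.1% were aligned, with a base mismatch rate of 3.87% to 4.05%. The labels were checked on the transgenes: Fermt1 was at 0.42 to 0.80 in the 9 GFP libraries and at 5.18 to 7.73 in the 10 α9k1 libraries, and Itga9 was 2.10, 1.77, 2.4, 2.0 and 2.3 in GFP-naive, 1.67, 0.90, 1.55 and 1.92 in GFP-crush, 2.38 to 5.16 with a median of 3.87 in α9k1-naive, and 7.51, 6.51, 6.82 and 5.53 in α9k1-crush. Reads of a transgene and of the endogenous gene cannot be told apart. The lowest α9k1-naive value of Itga9 lay inside the GFP-naive range. All 10 neuron markers on the list were measured, with a log2 summed level of 12.73 to 14.35 over the libraries. That of 8 satellite glia markers, mostly Apoe, was 14.11 to 16.78. Values by library below are deposited log2 values, which are not compared between genes. The covariates of the fit, 3 principal components of 48 library metrics, themselves differed between groups, with 34.5%, 52.2% and 74.5% of their variance lying between the groups, and log2FC below is the difference at equal covariates, with its SE.

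**Figure D1:**
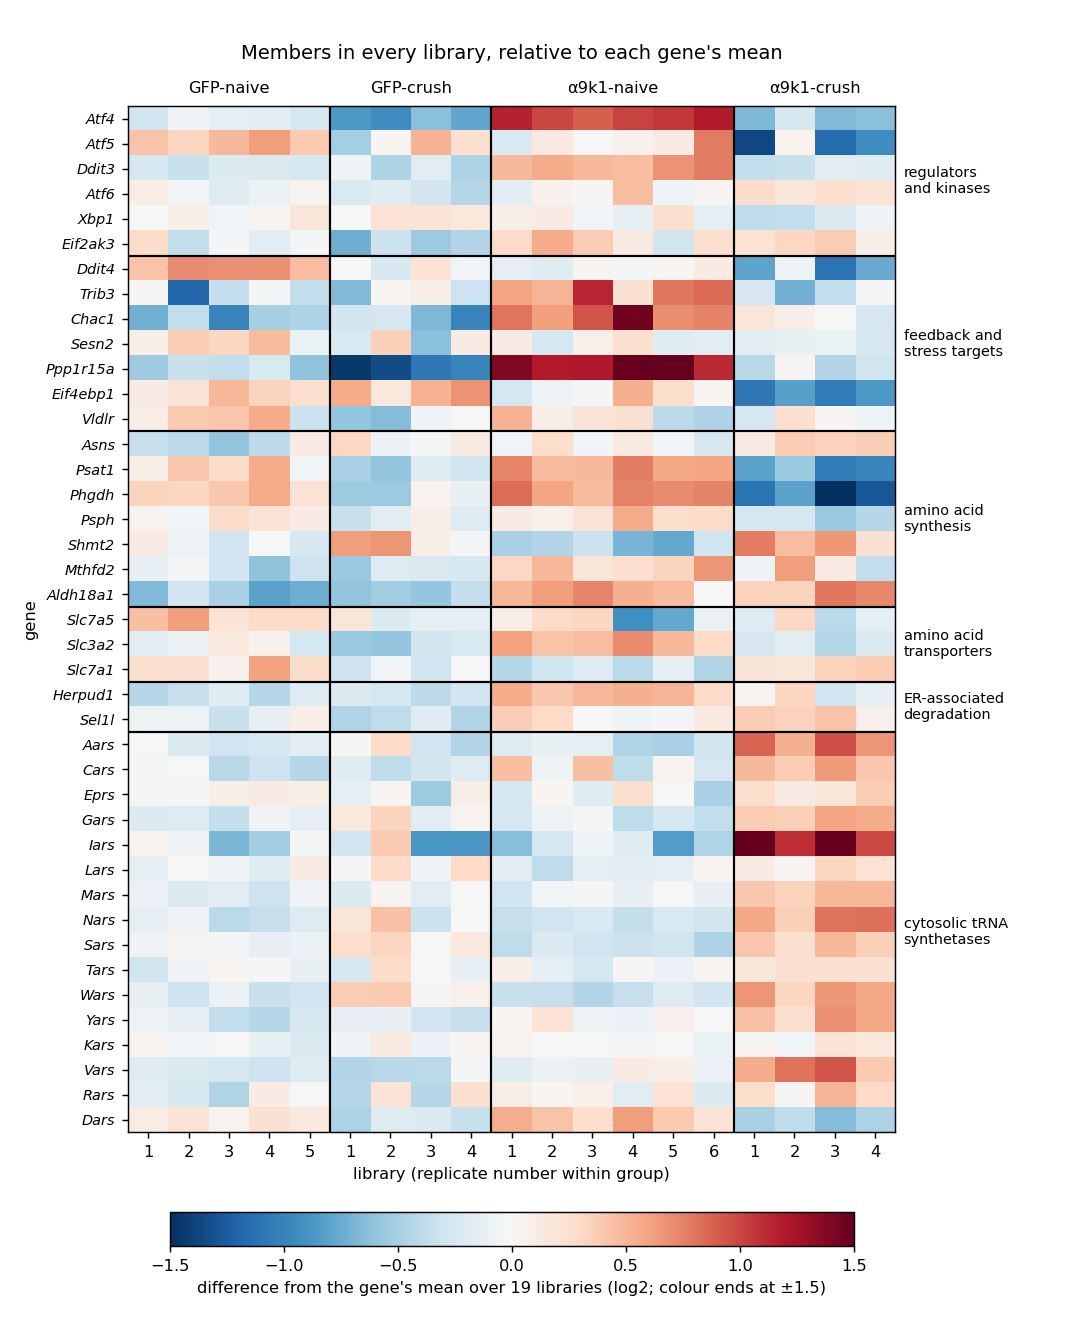
Deposited log2 value of each of the 41 measured genes (rows, in role groups) in each of the 19 libraries (columns, in groups), shown as the difference from that gene's mean over all libraries, where red is above and blue below. Atf4 and Ppp1r15a are red in all 6 α9k1-naive libraries, and 15 of the 16 tRNA synthetases have their highest group mean in α9k1-crush.

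In intact neurons, the α9k1 viruses (α9k1-naive against GFP-naive) were accompanied by higher Atf4, Ddit3, Ppp1r15a, Chac1 and Trib3, and by higher levels of 4 genes of serine, folate and proline metabolism. No tRNA synthetase passed the test as higher. Among the 41 genes, 11 were higher and 6 lower at an adjusted p under 0.1 in limma, where 11.4% of all 12629 genes were higher and 17.6% were lower. Without covariates 15 were higher and 5 lower, where 16.5% and 29.5% of all genes were. Median-centring the libraries gave 12 higher and 4 lower. The median log2FC of the 41 genes was 0.06, beside -0.08 for all genes.

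Among the regulators, Atf4 (chr15:80255184-80257540), the transcription factor at the centre of the response, was 8.41, 8.65, 8.55, 8.53 and 8.42 in GFP-naive, 7.83, 7.76, 8.06 and 7.91 in GFP-crush, 9.59 to 9.88 with a median of 9.73 in α9k1-naive, and 8.02, 8.45, 8.03 and 8.07 in α9k1-crush. All 6 α9k1-naive libraries lay above all libraries of the other groups, GFP-crush lay below GFP-naive, and α9k1-crush overlapped both, with 1 of its libraries inside the GFP-naive range. The α9k1-naive level was higher than GFP-naive (log2FC 1.37 ± 0.12, adjusted p = 1.05e-06), and the exact permutation test on the deposited values gave p = 0.00216, the smallest that 6 against 5 libraries allow. Ddit3 (chr10:127290774-127296288), which encodes the stress factor CHOP, was 6.22, 6.12, 6.25, 6.24 and 6.22 in GFP-naive, 6.41, 6.00, 6.29 and 6.00 in GFP-crush, 6.92 to 7.23 with a median of 6.99 in α9k1-naive, and 6.09, 6.13, 6.30 and 6.27 in α9k1-crush. Here too the α9k1-naive libraries stood above all others, while the remaining groups overlapped (α9k1-naive against GFP-naive: log2FC 0.93 ± 0.12, adjusted p = 4.42e-05). Of the exonic bases of Ddit3, 3.97% lie under exons of Mars on the other strand, and whether strand was used in counting is not given in the sources used here.

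The regulators outside this axis did not pass the test in α9k1-naive against GFP-naive. Atf5, a relative of Atf4 that is translated in the same way under stress, was 3.04, 2.93, 3.09, 3.23 and 3.01 in GFP-naive, 2.10, 2.64, 3.13 and 2.85 in GFP-crush, 2.38 to 3.40 with a median of 2.71 in α9k1-naive, and 1.25, 2.66, 1.46 and 1.68 in α9k1-crush. Its groups overlapped, apart from α9k1-crush, where 3 of the 4 libraries were below every other library (α9k1-naive against GFP-naive: log2FC 0.17 ± 0.27, adjusted p = 0.693), and 4.11% of its exonic bases lie under exons of Il4i1 and Nup62 on the other strand. Atf6, an ER membrane protein that is cleaved into a transcription factor under ER stress, was 3.56, 3.41, 3.25, 3.35 and 3.48 in GFP-naive, 3.22, 3.27, 3.17 and 3.02 in GFP-crush, 3.29 to 3.91 with a median of 3.48 in α9k1-naive, and 3.72, 3.63, 3.7 and 3.65 in α9k1-crush, with α9k1-naive and GFP-naive overlapping (log2FC 0.07 ± 0.13, adjusted p = 0.742). Xbp1, the factor made by the ER stress sensor IRE1 through unconventional splicing, was 6.94, 7.05, 6.91, 7.0 and 7.14 in GFP-naive, 6.95, 7.17, 7.14 and 7.11 in GFP-crush, 6.82 to 7.20 with a median of 6.98 in α9k1-naive, and 6.57, 6.58, 6.73 and 6.90 in α9k1-crush. Here α9k1-naive and GFP-naive overlapped (log2FC -0.08 ± 0.12, adjusted p = 0.651), whereas α9k1-crush lay below every library of both GFP groups, and Eif2ak3, the ER-resident eIF2α kinase PERK, had a log2FC of 0.21 ± 0.15.

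Of the 7 feedback and stress target genes, 3 rose, 1 fell and 3 did not pass the test. Ppp1r15a (chr7:45522916-45526268), whose product GADD34 brings a phosphatase to eIF2α, was 7.33, 7.52, 7.49, 7.63 and 7.26 in GFP-naive, 6.42, 6.52, 6.79 and 6.88 in GFP-crush, 8.98 to 9.46 with a median of 9.16 in α9k1-naive, and 7.45, 7.91, 7.43 and 7.57 in α9k1-crush. It rose more than any other of the 41 genes (log2FC 1.75 ± 0.16, adjusted p = 1.53e-06), with every α9k1-naive library above every other library. Chac1 (chr2:119351229-119354381), an enzyme that breaks down glutathione, was 3.38, 3.73, 3.09, 3.59 and 3.63 in GFP-naive, 3.81, 3.84, 3.43 and 3.09 in GFP-crush, 4.72 to 5.55 with a median of 4.87 in α9k1-naive, and 4.28, 4.19, 4.11 and 3.84 in α9k1-crush. Its α9k1-naive libraries were again all above the rest (log2FC 1.31 ± 0.22, adjusted p = 0.000732). Trib3 (chr2:152337422-152344032), a pseudokinase that restrains ATF4 and CHOP, was 1.97, 0.77, 1.59, 1.93 and 1.58 in GFP-naive, 1.28, 1.98, 2.04 and 1.64 in GFP-crush, 2.18 to 3.09 with a median of 2.64 in α9k1-naive, and 1.70, 1.23, 1.57 and 1.93 in α9k1-crush. Trib3 was low in all groups and rose in α9k1-naive (log2FC 1.16 ± 0.29, adjusted p = 0.0112), a call that was lost without α9k1-naive replicate 6 (log2FC 1.10, adjusted p = 0.106).

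Sesn2 (chr4:132492032-132510501), which encodes sestrin 2, an inhibitor of the growth kinase complex mTORC1, was 3.35, 3.62, 3.58, 3.73 and 3.16 in GFP-naive, 3.03, 3.61, 2.63 and 3.38 in GFP-crush, 2.99 to 3.49 with a median of 3.22 in α9k1-naive, and 3.09, 3.15, 3.16 and 3.02 in α9k1-crush. The groups overlapped and the lower level in α9k1-naive came at equal covariates (log2FC -0.55 ± 0.18, adjusted p = 0.0424). Without covariates it was -0.26 ± 0.15 (adjusted p = 0.186), and it also lost its call without GFP-naive replicate 4 (adjusted p = 0.1004). Ddit4, the mTORC1 inhibitor REDD1, went the other way: it did not pass the test at equal covariates (log2FC -0.36 ± 0.17) but was lower without them, at -0.62 ± 0.14 (adjusted p = 0.00218), with every α9k1-naive library below every GFP-naive library. The last 2 genes of this group had a log2FC of -0.08 ± 0.10 (Eif4ebp1, a repressor of cap-dependent translation) and -0.43 ± 0.26 (Vldlr, a lipoprotein receptor).

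In amino acid synthesis, 4 of the 7 measured genes rose and 1 fell. The risers were Aldh18a1 (log2FC 0.80 ± 0.15, adjusted p = 0.00171), which makes the precursor of proline, Mthfd2 (log2FC 0.80 ± 0.18, adjusted p = 0.00583), a mitochondrial enzyme of folate one-carbon metabolism, Phgdh (log2FC 0.54 ± 0.18, adjusted p = 0.0404), which begins serine synthesis, and Psat1 (log2FC 0.40 ± 0.15, adjusted p = 0.0748), the step after it. For Mthfd2 the call was lost without α9k1-naive replicate 6 (adjusted p = 0.109), for Phgdh without GFP-crush replicate 3 (adjusted p = 0.102), and for Psat1 in 8 of the 19 fits that left out a library. Without covariates Phgdh was at 0.32 ± 0.14 (adjusted p = 0.0731). Shmt2 (chr10:127517123-127522444), the mitochondrial serine hydroxymethyltransferase, went the other way and was 5.14, 4.95, 4.74, 5.02 and 4.79 in GFP-naive, 5.65, 5.69, 5.12 and 4.99 in GFP-crush, 4.26 to 4.73 with a median of 4.56 in α9k1-naive, and 5.79, 5.49, 5.68 and 5.25 in α9k1-crush. All α9k1-naive libraries lay below all libraries of the other groups (α9k1-naive against GFP-naive: log2FC -0.53 ± 0.18, adjusted p = 0.0532). This call was lost without GFP-crush replicate 3 (adjusted p = 0.144), GFP-naive replicate 1 (adjusted p = 0.119) or GFP-naive replicate 4 (adjusted p = 0.235). Asns, asparagine synthetase and the best known target of ATF4 under amino acid shortage, had a log2FC of 0.22 ± 0.16 (adjusted p = 0.339) that was called without covariates, at 0.32 ± 0.12 (adjusted p = 0.0435), and Psph, the last enzyme of serine synthesis, one of 0.28 ± 0.12 (adjusted p = 0.111), with 10.4% of its exonic bases under a transcript of Cct6a on the other strand.

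The transporters split. Slc3a2, the heavy chain that several amino acid exchangers need at the membrane, rose (log2FC 0.56 ± 0.13, adjusted p = 0.00567), whereas Slc7a5, the light chain of its large neutral amino acid exchanger, had a log2FC of -0.55 ± 0.24 and did not pass the test (adjusted p = 0.119), though it did without covariates, at -0.55 ± 0.20 (adjusted p = 0.0423). Slc7a1 (chr5:148327410-148399904), the uptake carrier for arginine and lysine, was 3.91, 3.89, 3.71, 4.25 and 3.92 in GFP-naive, 3.34, 3.61, 3.35 and 3.65 in GFP-crush, 3.20 to 3.52 with a median of 3.29 in α9k1-naive, and 3.84, 3.81, 4.0 and 4.03 in α9k1-crush. Its α9k1-naive libraries lay below all GFP-naive libraries and overlapped only GFP-crush (α9k1-naive against GFP-naive: log2FC -0.77 ± 0.13, adjusted p = 0.000611). In ER-associated degradation, Herpud1 rose (log2FC 0.80 ± 0.14, adjusted p = 0.000761) and Sel1l, an adaptor of the HRD1 ubiquitin ligase, had a log2FC of 0.22 ± 0.13, called only without covariates, at 0.22 ± 0.10 (adjusted p = 0.0944).

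None of the 16 measured cytosolic tRNA synthetases passed the test as higher in α9k1-naive and 3 were lower (2 and 1 without covariates), and the median log2FC of the 16 was -0.11. Sars (chr3:108424865-108445209), which charges tRNAs with serine, was 7.51, 7.60, 7.54, 7.43 and 7.47 in GFP-naive, 7.82, 7.88, 7.56 and 7.71 in GFP-crush, 7.10 to 7.36 with a median of 7.25 in α9k1-naive, and 7.97, 7.80, 8.05 and 7.92 in α9k1-crush. Every α9k1-naive library was below every library of the other groups (log2FC -0.41 ± 0.09, adjusted p = 0.00471). Eprs (chr1:185363044-185428360), the bifunctional enzyme for glutamate and proline, was 7.05, 7.04, 7.16, 7.20 and 7.16 in GFP-naive, 6.94, 7.10, 6.54 and 7.17 in GFP-crush, 6.59 to 7.32 with a median of 6.98 in α9k1-naive, and 7.34, 7.20, 7.26 and 7.44 in α9k1-crush. The α9k1-naive and GFP-naive libraries overlapped, α9k1-crush lay above both GFP groups, and the lower level in α9k1-naive (log2FC -0.38 ± 0.14, adjusted p = 0.0561) was not called without α9k1-naive replicate 6 (adjusted p = 0.386), without GFP-crush replicate 3 (adjusted p = 0.102) or without covariates, where it was -0.15 ± 0.12 (adjusted p = 0.342). The third was Gars, for glycine, at the edge of the threshold (log2FC -0.25 ± 0.10, adjusted p = 0.09996) and at -0.04 ± 0.10 (adjusted p = 0.804) without covariates, a call kept in 3 of the 19 fits that left out a library. The other 13 (Aars, Cars, Dars, Iars, Kars, Lars, Mars, Nars, Rars, Tars, Vars, Wars and Yars) had a log2FC of -0.50 to 0.21.

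Markers of other cell types and early-response genes also differed in this comparison. All 10 dissociation and immediate early genes on the marker list were higher in α9k1-naive, and the log2 of their summed level was 13.34 to 13.80 there and 12.00 to 12.31 in GFP-naive. The satellite glia list was mixed, with 3 of 8 markers higher and 1 lower. Its summed level of 16.27 to 16.78 against 15.56 to 15.94 was mostly that of Apoe (16.22 to 16.74 against 15.48 to 15.87), while Sox10 was lower (6.58 to 7.05 against 8.21 to 8.57). Of 10 neuron markers 3 were lower and 1 was higher, with a summed level of 12.73 to 13.08 against 13.33 to 13.67. Nefl (9.29 to 9.62 against 10.91 to 11.52) and Nefm were among the lower ones, Prph was the higher one, and Elavl4 did not pass the test (log2FC -0.13 ± 0.14). The summed level of 7 macrophage markers was 10.38 to 10.85 against 8.68 to 9.26 (5 higher), and that of 7 Schwann cell markers 11.49 to 11.89 against 13.03 to 13.38 (6 lower, 1 higher). Of 4 measured fibroblast markers all were lower, at 6.31 to 8.03 against 9.17 to 9.50, and the 2 measured endothelial markers were lower, at 3.25 to 5.59 against 6.01 to 6.58, with Pecam1, Cdh5 and Kdr without a row. The part of these in the stress response difference was not tested.

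**Figure D2:**
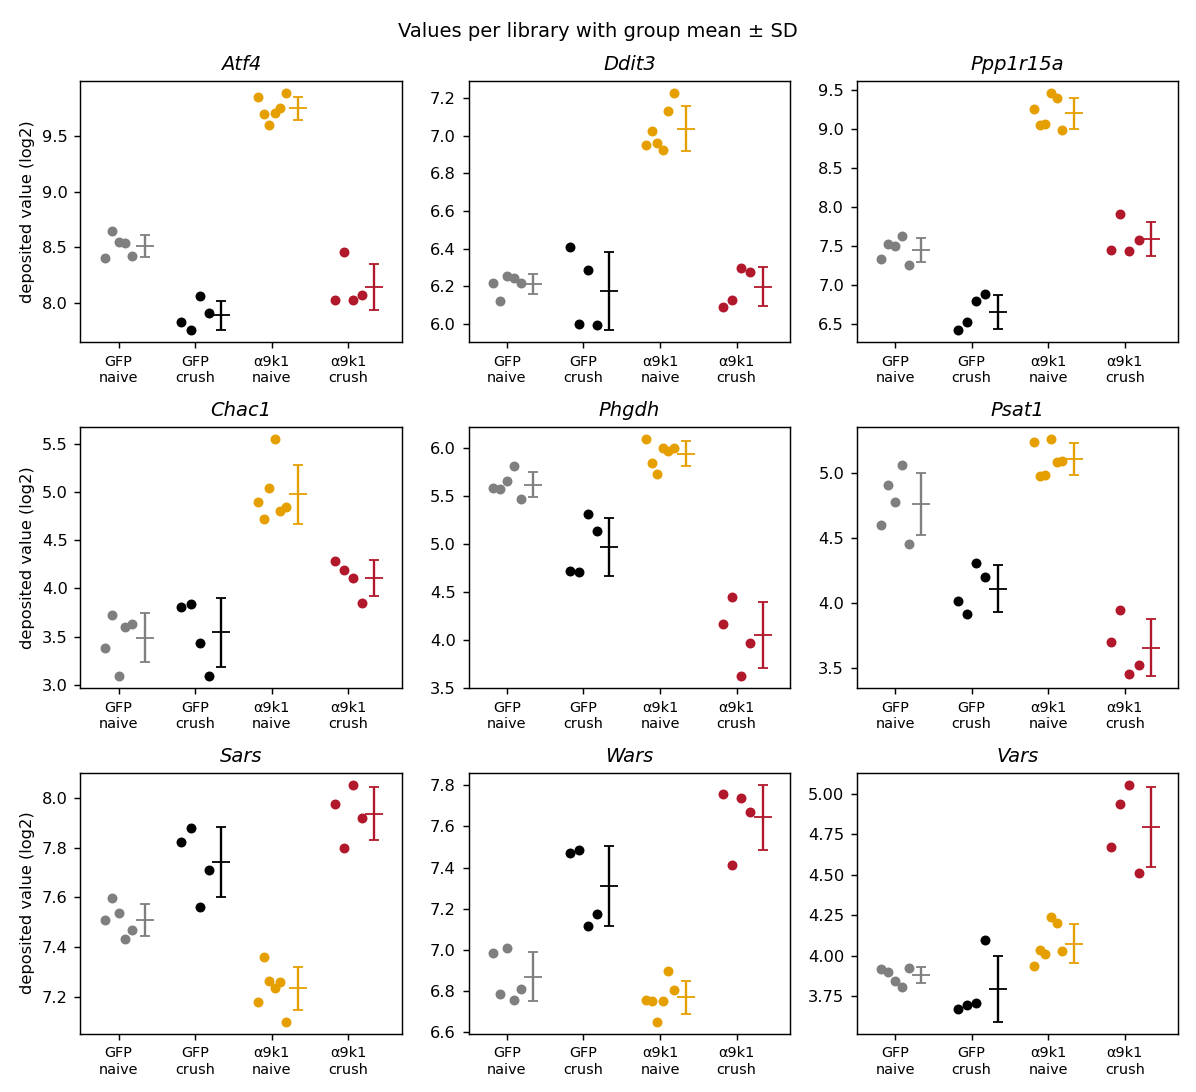
Deposited log2 values of 9 genes in each library (points), with the group mean ± SD (bar) beside them, for GFP-naive (n = 5), GFP-crush (n = 4), α9k1-naive (n = 6) and α9k1-crush (n = 4). Atf4, Ddit3, Ppp1r15a and Chac1 are highest in the α9k1-naive libraries, Phgdh and Psat1 have their lowest group mean in α9k1-crush, and Sars, Wars and Vars have their highest group mean in α9k1-crush.

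A dorsal root crush with the control virus (GFP-crush against GFP-naive) was accompanied by lower Atf4, Ppp1r15a and Ddit4 and by lower Phgdh and Psat1 of the serine pathway, while Asns, Shmt2 and 3 tRNA synthetases were higher. Of the 41 genes, 5 rose and 8 fell, where 7.39% of all genes were higher and 15.7% lower. Without covariates 5 rose and 11 fell, where 11.0% and 20.1% of all genes did. Fitted on the libraries of these 2 groups alone, 0 rose and 4 fell. With median-centred libraries 7 rose and 5 fell, so that the balance turned, while the median log2FC of all genes moved from -0.08 to 0.06. At equal covariates without centring, the median log2FC was 0.05 over the 41 genes and -0.08 over all genes. This comparison and the one before share the GFP-naive libraries.

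Atf4 fell (log2FC -0.72 ± 0.12, adjusted p = 0.00157), and so did Ppp1r15a (log2FC -0.77 ± 0.16, adjusted p = 0.00614), both without overlap between the groups in the values given above, and both with the smallest p that the exact permutation test of 4 against 5 libraries allows, 0.00794. Ddit4 (chr10:59949675-59951770), which holds back mTORC1 under stress, was 4.78, 5.07, 5.05, 5.04 and 4.82 in GFP-naive, 4.35, 4.12, 4.57 and 4.31 in GFP-crush, 4.18 to 4.49 with a median of 4.36 in α9k1-naive, and 3.57, 4.29, 3.25 and 3.60 in α9k1-crush. GFP-naive was above the other 3 groups in every library (GFP-crush against GFP-naive: log2FC -0.79 ± 0.17, adjusted p = 0.00948). For Ddit3 the log2FC was -0.12 ± 0.12, for Chac1 0.22 ± 0.23 and for Trib3 0.11 ± 0.29, none of which passed the test.

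The serine pathway was lower at its first and second steps. Phgdh (chr3:98313170-98339990) was 5.58, 5.57, 5.65, 5.81 and 5.47 in GFP-naive, 4.72, 4.71, 5.31 and 5.13 in GFP-crush, 5.73 to 6.09 with a median of 5.98 in α9k1-naive, and 4.16, 4.45, 3.62 and 3.97 in α9k1-crush. GFP-crush lay below GFP-naive throughout (log2FC -0.76 ± 0.18, adjusted p = 0.012), and α9k1-crush lay below GFP-crush. Psat1 (chr19:15904678-15947337) was 4.60, 4.91, 4.78, 5.06 and 4.46 in GFP-naive, 4.02, 3.91, 4.31 and 4.20 in GFP-crush, 4.98 to 5.27 with a median of 5.09 in α9k1-naive, and 3.7, 3.94, 3.45 and 3.52 in α9k1-crush. Its order of groups was the same, with 1 α9k1-crush library inside the GFP-crush range (GFP-crush against GFP-naive: log2FC -0.72 ± 0.15, adjusted p = 0.0076). Psph, the third step, was not called (log2FC -0.30 ± 0.12, adjusted p = 0.102).

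Asns (chr6:7675169-7693254) was 5.99, 5.94, 5.74, 5.94 and 6.46 in GFP-naive, 6.64, 6.24, 6.31 and 6.47 in GFP-crush, 6.09 to 6.59 with a median of 6.29 in α9k1-naive, and 6.45, 6.71, 6.68 and 6.71 in α9k1-crush. The highest GFP-naive library reached into the GFP-crush range, and the group difference was positive (log2FC 0.56 ± 0.16, adjusted p = 0.0286), a call kept in all 19 fits that left out a library. Shmt2 also rose (log2FC 0.49 ± 0.19, adjusted p = 0.0863), a call kept in 11 of those 19 fits. The transporters Slc7a1 (log2FC -0.38 ± 0.13, adjusted p = 0.0614) and Slc3a2 (log2FC -0.36 ± 0.13, adjusted p = 0.0735) fell, with calls kept in 13 and 12 of the 19 fits.

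Among the synthetases, 3 of 16 rose, 1 fell, and 14 of 16 had a positive log2FC, with a median of 0.12 (11 of 16 and 0.06 without covariates). Wars (chr12:108860030-108894174), for tryptophan, was 6.98, 6.78, 7.01, 6.75 and 6.81 in GFP-naive, 7.47, 7.48, 7.11 and 7.17 in GFP-crush, 6.65 to 6.90 with a median of 6.75 in α9k1-naive, and 7.76, 7.41, 7.74 and 7.67 in α9k1-crush. The GFP-crush libraries were all above the GFP-naive libraries (log2FC 0.46 ± 0.13, adjusted p = 0.0299), and the call was lost without GFP-crush replicate 2 (adjusted p = 0.109) or GFP-naive replicate 2 (adjusted p = 0.125). Gars (chr6:55038007-55079500), for glycine, was 6.78, 6.79, 6.63, 6.93 and 6.85 in GFP-naive, 7.14, 7.31, 6.83 and 7.04 in GFP-crush, 6.60 to 6.97 with a median of 6.73 in α9k1-naive, and 7.36, 7.34, 7.58 and 7.54 in α9k1-crush. The 2 GFP groups overlapped (log2FC 0.37 ± 0.10, adjusted p = 0.0288), and without GFP-naive replicate 2 the adjusted p was 0.134. Sars rose as well (log2FC 0.29 ± 0.09, adjusted p = 0.0443), a call lost without GFP-crush replicate 1 (adjusted p = 0.103) or replicate 2 (adjusted p = 0.125). Dars, for aspartate, fell (log2FC -0.41 ± 0.12, adjusted p = 0.0373), with an adjusted p of 0.129 without GFP-naive replicate 2.

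All 10 dissociation and immediate early genes were lower in GFP-crush, with a summed log2 level of 10.72 to 11.15 against 12.00 to 12.31 in GFP-naive. Satellite glia markers were at 14.65 to 14.96 against 15.56 to 15.94 (6 of 8 lower), macrophage markers at 10.95 to 11.63 against 8.68 to 9.26 (5 of 7 higher), fibroblast markers at 7.83 to 8.14 against 9.17 to 9.50 (3 of 4 lower) and neuron markers at 13.88 to 14.35 against 13.33 to 13.67 (5 of 10 higher, 1 lower). Schwann cell markers overlapped, at 13.19 to 13.87 against 13.03 to 13.38. What share of the stress gene differences goes with them was not tested.

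**Figure D3:**
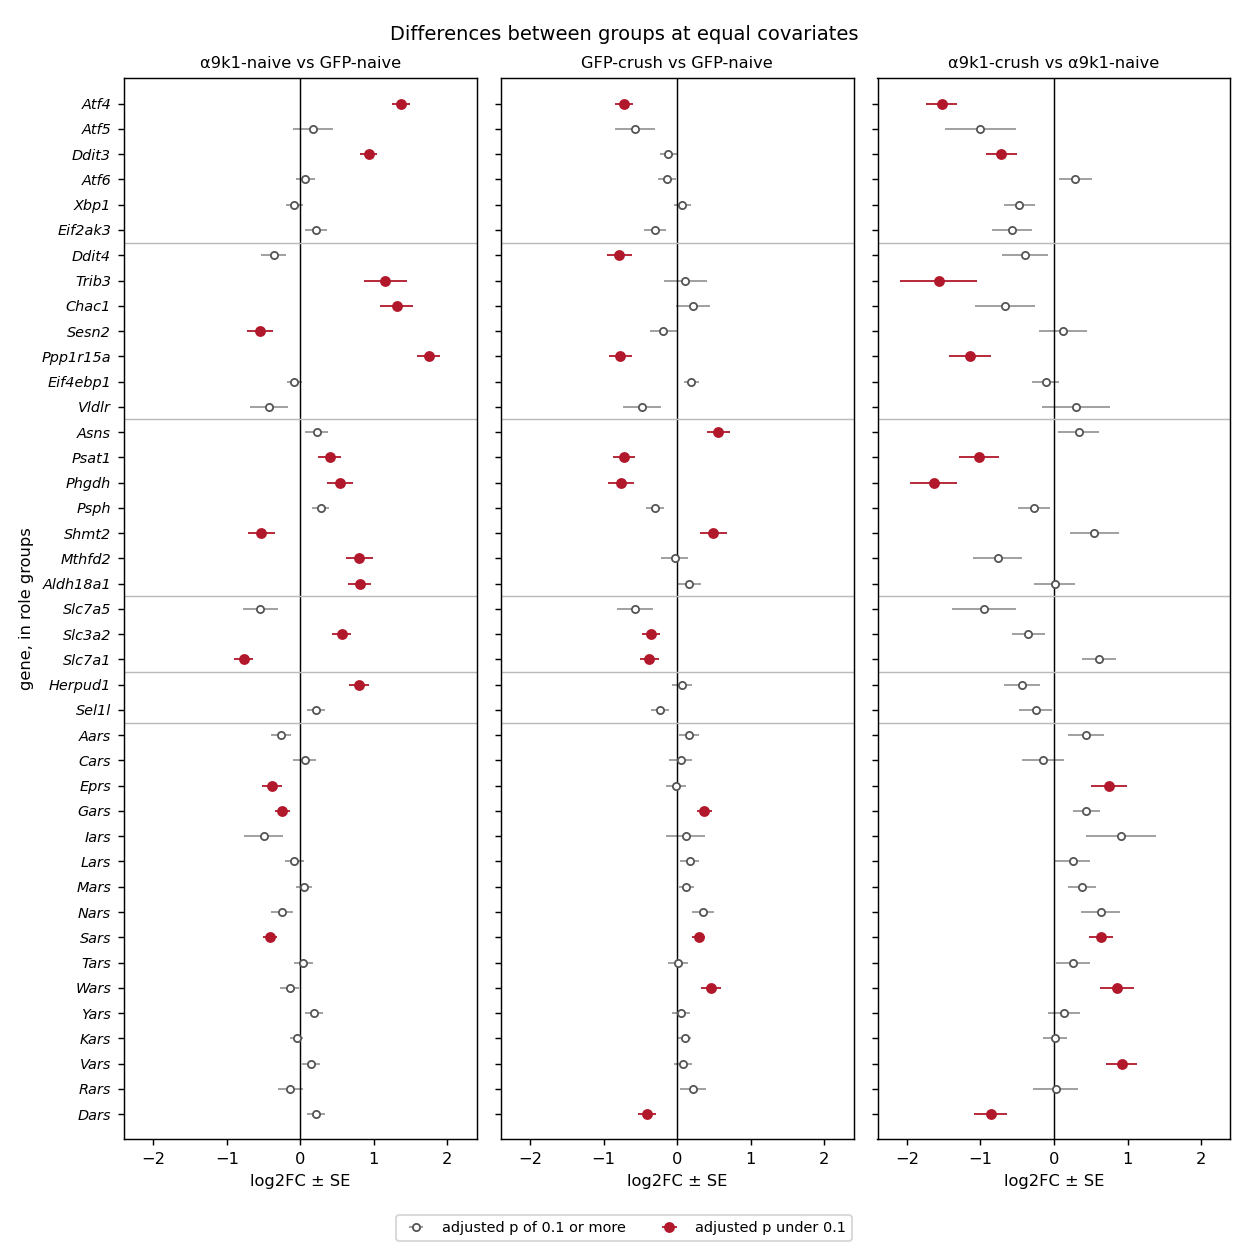
Difference between groups (log2FC ± SE at equal covariates) for the 41 genes in 3 comparisons, with genes in role groups and filled red points for an adjusted p under 0.1 over all 12629 genes. Atf4 and Ppp1r15a lie to the right in the first panel and to the left in the other panels, and the synthetases in the third panel lie mostly to the right of 0, where 4 are called, with Dars called to the left.

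In the α9k1 neurons a crush (α9k1-crush against α9k1-naive) went with lower Atf4, Ddit3, Ppp1r15a, Trib3, Phgdh and Psat1 and with higher Vars, Wars, Eprs and Sars. Of the 41 genes, 4 rose and 7 fell, where 4.47% of all genes were higher and 5.27% lower. Without covariates 16 rose and 15 fell, where 28.5% and 27.1% of all genes did, and with the libraries of these 2 groups alone 0 rose and 1 fell. The median SE of the 41 genes was 0.24 with the covariates and 0.13 without them. The libraries of α9k1-naive are shared with the first comparison, so the fall of Atf4 here and its rise there rest in part on the same values.

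Atf4 fell (log2FC -1.53 ± 0.21, adjusted p = 0.0015) without overlap, as did Ppp1r15a (log2FC -1.14 ± 0.28, adjusted p = 0.0296) and Ddit3 (log2FC -0.71 ± 0.21, adjusted p = 0.058). The call for Ddit3 was lost in 5 of the 19 fits that left out a library, with adjusted p from 0.107 to 0.281. Trib3 fell (log2FC -1.57 ± 0.53, adjusted p = 0.099), at -1.03 ± 0.22 (adjusted p = 0.00108) without covariates, a call kept in 3 of the 19 fits. Phgdh fell most among all 41 genes (log2FC -1.64 ± 0.32, adjusted p = 0.00901), and Psat1 fell with it (log2FC -1.02 ± 0.27, adjusted p = 0.0424), a call lost without α9k1-naive replicate 1 (adjusted p = 0.113) or replicate 4 (adjusted p = 0.108). Chac1, whose α9k1-crush libraries were likewise all below those of α9k1-naive, did not pass the test (log2FC -0.66 ± 0.41, adjusted p = 0.366) but was called without covariates, at -0.87 ± 0.18 (adjusted p = 0.000555).

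Higher synthetases in α9k1-crush were led by Vars (chr17:35000987-35016322), for valine, which was 3.92, 3.90, 3.85, 3.81 and 3.92 in GFP-naive, 3.67, 3.7, 3.71 and 4.10 in GFP-crush, 3.94 to 4.24 with a median of 4.03 in α9k1-naive, and 4.67, 4.94, 5.06 and 4.51 in α9k1-crush. The 4 α9k1-crush libraries were above all 15 others (log2FC 0.92 ± 0.21, adjusted p = 0.0214). Wars (log2FC 0.86 ± 0.23, adjusted p = 0.0443) and Sars (log2FC 0.64 ± 0.16, adjusted p = 0.033) rose with no overlap between the groups, although Sars was not called without α9k1-naive replicate 4 (adjusted p = 0.127), nor Wars without α9k1-naive replicate 1 (adjusted p = 0.101) or replicate 4 (adjusted p = 0.102). Eprs rose (log2FC 0.75 ± 0.24, adjusted p = 0.0858), at 0.34 ± 0.13 (adjusted p = 0.0394) without covariates, in values that overlapped, with the call kept in 7 of 19 fits. The exception was Dars, which fell (log2FC -0.86 ± 0.22, adjusted p = 0.0337). Over the 16 synthetases 14 had a positive log2FC and the median was 0.41, beside 0.00 for all genes. Without covariates 13 of the 16 were called higher and 1 lower, where 28.5% and 27.1% of all genes were. Their median was then 0.50, beside 0.01 for all genes. Iars, for isoleucine, had a log2FC of 0.91 ± 0.47 that did not pass the test, and without covariates it was 1.74 ± 0.24 (adjusted p = 1.11e-05).

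Marker levels moved here too. The summed satellite glia level was 14.11 to 14.69 in α9k1-crush against 16.27 to 16.78 in α9k1-naive (5 of 8 lower), the Schwann cell level 12.37 to 13.37 against 11.49 to 11.89 (6 of 7 higher), the neuron level 13.86 to 14.31 against 12.73 to 13.08 (3 of 10 higher), and the dissociation and immediate early level 11.97 to 12.60 against 13.34 to 13.80 (4 of 10 lower). Of the 4 measured fibroblast markers 3 were higher, with a median log2FC of 2.23 and summed levels that overlapped, 7.39 to 7.98 against 6.31 to 8.03. Of the 2 measured endothelial markers 1 was higher (3.13 to 5.54 against 3.25 to 5.59), and of 7 macrophage markers 1 was higher (10.53 to 11.27 against 10.38 to 10.85). Without covariates 7 of 8 satellite glia markers and all 10 dissociation and immediate early genes were lower, where 27.1% of all genes were. In that fit 6 of 7 Schwann cell and 6 of 10 neuron markers were higher, where 28.5% were, and 1 Schwann cell marker was lower. Of the 4 fibroblast markers 2 were higher, with a median log2FC of 0.67, and of the 7 macrophage markers 3 were higher. Neither endothelial marker was called. The part of these lists in the lower Atf4 genes and the higher synthetases was not tested.

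With the crush in both groups (α9k1-crush against GFP-crush), none of the 41 genes passed the limma test at equal covariates, where 0.728% of all genes were higher and 0.182% lower. At an unadjusted p under 0.05, 3 were higher and 1 was lower. Here and below, the share of all genes at that unadjusted cut was not counted, so such counts are a description only. The smallest adjusted p belonged to Ppp1r15a (log2FC 1.38 ± 0.34, adjusted p = 0.108), followed by Vars (log2FC 0.99 ± 0.26, adjusted p = 0.146). The libraries of both groups are shared with the crush comparisons above. For Atf4 the log2FC was 0.57 ± 0.26, for Ddit3 0.34 ± 0.25 and for Chac1 0.43 ± 0.49, none of which passed the test. Without covariates Ppp1r15a was at 0.94 ± 0.14 (adjusted p = 4.57e-05), Atf4 at 0.25 ± 0.11 (adjusted p = 0.0571) and Chac1 at 0.56 ± 0.19 (adjusted p = 0.0214). For Ddit3 the exact permutation test on the deposited values, which takes no covariates, gave p = 0.857.

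This count depended on the covariates. Without them 23 of the 41 genes were higher and 6 lower, where 29.6% and 28.3% of all genes were. Of the 6 measured regulators and kinases 3 were higher and 2 lower, and of the 16 synthetases 13 were higher with none lower. The largest of these was Iars, at 1.74 ± 0.26 (adjusted p = 4.11e-05) without covariates and 0.29 ± 0.57 with them. For Aars, the alanine enzyme, the pair of values was 0.87 ± 0.14 (adjusted p = 0.000111) and 0.00 ± 0.29, with 14.3% of its exonic bases shared with Exosc6 on the same strand, and for Yars, the tyrosine enzyme, 0.71 ± 0.11 (adjusted p = 7.33e-05) and 0.26 ± 0.26. Among the lower genes were Eif4ebp1, at -1.42 ± 0.15 (adjusted p = 2.04e-06) and -0.39 ± 0.22, and Phgdh, at -0.92 ± 0.16 (adjusted p = 0.00017) and -0.34 ± 0.38. Vars kept its size, at 1.0 ± 0.12 (adjusted p = 6.92e-06) and 0.99 ± 0.26, but its SE was larger with the covariates. The median ratio of the SE with covariates to that without was 2.35 over the 41 genes in this comparison and 1.26 in α9k1-naive against GFP-naive.

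As a description of the deposited values, 15 of the 16 synthetases had their highest group mean in α9k1-crush and Dars had its lowest there, while 31.6% of all genes had their highest mean in α9k1-crush. Of the 6 regulators 2 did, and of the 7 feedback and stress targets 0. Since the library metrics differ between the groups, what belongs to the crush with α9k1 and what belongs to the metrics cannot be told apart for these genes. The dissociation and immediate early level was 11.97 to 12.60 in α9k1-crush and 10.72 to 11.15 in GFP-crush (8 of 10 higher). Of the other lists, 1 of 7 Schwann cell markers passed the test at equal covariates, as higher, and no neuron, satellite glia, macrophage, fibroblast or endothelial marker did. Without covariates, 4 of 8 satellite glia markers were lower and 2 higher, 4 of 7 Schwann cell markers were lower and 1 higher, both measured endothelial markers were lower, 1 of 7 macrophage markers was lower and 2 were higher, and 4 of 10 neuron markers were higher and 2 lower. The summed endothelial level was 3.13 to 5.54 against 5.96 to 6.92, without overlap. The part of these in the values of the stress genes and synthetases, with or without covariates, was not tested.

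**Figure D4:**
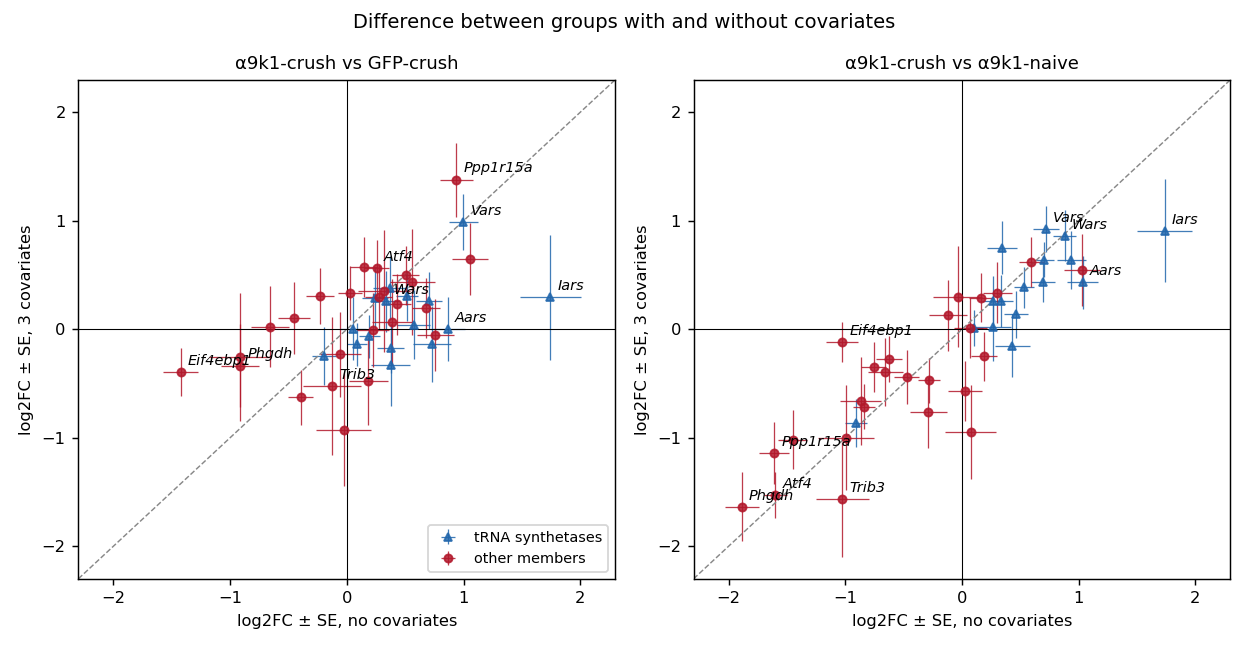
Difference between groups for the 41 genes without covariates (x axis, log2FC ± SE) and with the 3 covariates (y axis, log2FC ± SE), with tRNA synthetases as blue triangles, other genes as red circles and equality as a dashed line. In α9k1-crush against GFP-crush 13 of the 16 synthetases are called higher without covariates and none with them.

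Whether the α9k1 effect differed with and without a crush was tested as an interaction. Slc7a1 was the only one of the 41 genes past the threshold (log2FC 1.0 ± 0.26, adjusted p = 0.0954), where 1.35% of all genes were higher and 0.847% lower. The α9k1 effect on Slc7a1 was -0.77 ± 0.13 without a crush and 0.23 ± 0.28 with one. In the deposited values every α9k1-crush library lay above every GFP-crush library. The exact permutation test gave p = 0.0286 there, the smallest these group sizes allow. The interaction call was kept in 5 of the 19 fits that left out a library, with adjusted p up to 0.248 in the others. It was lost with quantile scaling or median-centring. At an unadjusted p under 0.05, a cut at which the share of all genes was not counted, 3 of the 41 genes had a positive interaction and 5 a negative one. The interaction of Atf4 was log2FC -0.80 ± 0.24, adjusted p = 0.139, that of Trib3 log2FC -1.68 ± 0.60, adjusted p = 0.215 and that of Vars log2FC 0.85 ± 0.24, adjusted p = 0.126. Without covariates 15 were positive and 13 negative at the threshold, where 23.3% and 16.1% of all genes were, Iars at 1.90 ± 0.34 (adjusted p = 0.000746) and Atf4 at -0.98 ± 0.14 (adjusted p = 0.000125) among them.

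Genes of neighbouring pathways were read from 5 further lists. Of 20 listed ATF4 targets outside the 45 genes, 11 were measured, and in α9k1-naive against GFP-naive 3 of them rose and 4 fell, again beside 11.4% and 17.6% of all genes. The risers included the stress factors Atf3 (log2FC 2.99 ± 0.17, adjusted p = 1.18e-08) and Cebpb (log2FC 2.37 ± 0.16, adjusted p = 6.79e-08), and the fallers the glutamine carrier Slc38a2 (log2FC -1.13 ± 0.14, adjusted p = 3.61e-05) and the stress protein gene Nupr1 (log2FC -0.95 ± 0.34, adjusted p = 0.0604). Cebpb (log2FC 2.73 ± 0.35, adjusted p = 0.0011) and Atf3 (log2FC 2.16 ± 0.36, adjusted p = 0.00893) were also higher in α9k1-crush against GFP-crush, the only 2 of the 11 to pass there at equal covariates. Of all genes 0.728% were higher there. Without covariates 7 of the 11 were higher, where 29.6% of all genes were, all 11 were positive and the median was 0.46 in place of 0.14, with Cebpb at 1.81 ± 0.17 (adjusted p = 8e-07). In GFP-crush against GFP-naive 4 fell, Cebpb (-0.93 ± 0.16) and the neutral amino acid carrier Slc1a4 (-0.92 ± 0.13) most, where 15.7% of all genes did. In α9k1-crush against α9k1-naive 2 fell, Atf3 (-1.42 ± 0.30) and Slc1a4 (-0.82 ± 0.24), where 5.27% of all genes did. The direction of the last count turned without covariates, to 5 higher and 3 lower, where 28.5% and 27.1% of all genes were, and the median log2FC went from -0.19 to 0.34. Atf3 is also on the list of dissociation and immediate early genes.

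ER chaperones and degradation factors had 20 of 22 listed genes measured. Hspa5, the chaperone BiP and the main marker of ER stress, rose in α9k1-naive (log2FC 0.96 ± 0.11, adjusted p = 1.5e-05), and Hsp90b1, its partner GRP94, did too (log2FC 0.41 ± 0.11, adjusted p = 0.0169). In total 3 of the 20 rose and 5 fell, where 11.4% and 17.6% of all genes did, the latter led by Derl3 (-0.93 ± 0.22) and Derl2 (-0.38 ± 0.12), which form channels for degradation. After a crush with the control virus 7 of the 20 fell, where 15.7% of all genes did, with Pdia4 (-0.60 ± 0.13) and Hsp90b1 (-0.58 ± 0.11) in front, and after a crush with α9k1 Hsp90b1 (-1.0 ± 0.20) and Hspa5 (-0.81 ± 0.19) fell, where 5.27% of all genes did. Without covariates 10 of the 20 were lower and 2 higher in this last comparison, where 27.1% and 28.5% of all genes were. In α9k1-crush against GFP-crush none passed the limma test at equal covariates (1 higher at an unadjusted p under 0.05), and without them 8 were lower and 4 higher, where 28.3% and 29.6% of all genes were.

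Of the other eIF2α kinases and initiation factor subunits, all 11 were measured. Eif2ak2, the double-stranded RNA kinase PKR, rose in α9k1-naive (log2FC 1.29 ± 0.17, adjusted p = 8.52e-05). Eif2s1, which encodes eIF2α itself, fell (-0.33 ± 0.12), and was at -0.52 ± 0.12 (adjusted p = 0.00223) without covariates. Eif2s2 was higher (0.26 ± 0.10) and Eif2b1 lower (-0.44 ± 0.12) at equal covariates only. Without them the values were 0.06 ± 0.10 (adjusted p = 0.648) and -0.18 ± 0.12 (adjusted p = 0.254). After a crush Eif2s1 was higher with the control virus (0.45 ± 0.12). With α9k1 it was higher at equal covariates only (0.69 ± 0.22), and without them it was at 0.16 ± 0.13 (adjusted p = 0.306). Eif2b1 was higher with α9k1 (0.69 ± 0.22), at 0.43 ± 0.13 (adjusted p = 0.00903) without covariates. With the control virus it was higher at equal covariates only (0.36 ± 0.12), and without them it was at 0.27 ± 0.13 (adjusted p = 0.15). Ppp1r15b, the constitutive counterpart of Ppp1r15a, fell after a crush, at -0.63 ± 0.13 with the control virus and -0.71 ± 0.24 with α9k1. The former was -0.40 ± 0.14 (adjusted p = 0.0447) without covariates.

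Synthetases beyond the 17 listed were read from 2 of these lists. Of 7 other cytosolic subunits and scaffold proteins, Aimp2 rose in α9k1-naive (0.28 ± 0.10), at 0.17 ± 0.08 (adjusted p = 0.0988) without covariates. Farsb was lower in α9k1-naive (-0.30 ± 0.11) and higher in GFP-crush (0.34 ± 0.12) at equal covariates only. Without them it was at -0.03 ± 0.12 (adjusted p = 0.863) and 0.25 ± 0.13 (adjusted p = 0.174). Of 15 measured mitochondrial synthetases, Tars2 rose (0.53 ± 0.14) and Lars2 fell (-1.29 ± 0.19) in α9k1-naive. Lars2 was also lower when crushed α9k1 neurons were set against GFP-crush (-2.01 ± 0.42). In GFP-crush Sars2 (0.70 ± 0.14) and Tars2 (0.45 ± 0.14) rose while Yars2 fell (-0.85 ± 0.16). Tars2 was at 0.30 ± 0.13 (adjusted p = 0.0975) there without covariates. In α9k1-crush against α9k1-naive none of the 7 and none of the 15 passed the limma test at equal covariates (1 higher and 1 lower in each list at an unadjusted p under 0.05). Without them 2 of the 7 were higher and 3 lower, and 3 of the 15 were higher. Of all genes 28.5% were higher and 27.1% lower there. In α9k1-crush against GFP-crush without covariates 2 of the 7 were higher and 3 lower, and 6 of the 15 were higher and 2 lower. Of all genes 29.6% were higher and 28.3% lower in that fit.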

How the data were processed

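RNA-seq was analysed in 19 libraries of sorted DRG neurons, grouped by the titles and characteristics in the labels. According to the study's methods and the submitters' processing notes, the authors aligned reads to the mouse genome mm10 with STAR, took library metrics with Picard, and estimated gene counts with Salmon. They removed genes with few reads, and the deposited expression values are log2 values with a small pseudocount, adjusted for gene length and depth by conditional quantile normalisation. The deposited library metrics are read counts, fractions, percent values, ratios and other numbers per library, as the authors' Picard output gave them. In 5 duplication metrics the column names do not match the contents (the one named for percent duplication holds whole numbers). The authors' fold changes and p-values per comparison were not used.

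Here limma 3.58.1 in R 4.3.3 was fitted to all 12629 genes and 19 libraries with the 4 groups and 3 principal components of 48 library metrics, and p-values were Benjamini-Hochberg adjusted over all genes, with a threshold of 0.1. A batch term of the study's model was left out, as the labels give no batch. The expression and gene tables were joined by row order, after a check of values between them (r = 0.959 in the same order, 0.0899 with rows shifted). Single genes were also compared by a two-sided exact permutation test on the log2 values. Log2FC is the difference of group levels at equal covariates. Depth was 36.4 to 87.6 M read pairs, and counts per gene are not analysed here.

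The genes and lists were chosen with earlier results of these data known, and no test was made over a list. Values by library are given for Atf4, Atf5, Ddit3, Atf6 and Xbp1 and for the genes called with the largest differences in each comparison. Alternatives were the fit without covariates, with the first component only, with quantile or median scaling, another pseudocount, a filter on low values, only the groups compared, a replicate block, and leaving out each library. Overlaps of exons were taken from GENCODE vM21, and strand use in counting is not given in the sources used here. Promoter windows are those of RefSeq, GRCm38.p6.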

Additional observations from a re-analysis of the deposited data

Results flagged for a closer look

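One library stood apart from the others of its group in 9 of the 164 groups of 4 to 6 libraries examined (41 genes in 4 groups), where chance gives about 1 in 20. On the deposited log2 scale, these were Atf4 at 8.45 in α9k1-crush replicate 2, Ddit3 at 6.12 in GFP-naive replicate 2, Atf5 at 3.40 in α9k1-naive replicate 6, Atf6 at 3.91 in α9k1-naive replicate 4, Asns at 6.45 in α9k1-crush replicate 1, Mthfd2 at 3.57 in GFP-crush replicate 1, Aldh18a1 at 4.63 in α9k1-naive replicate 6, Slc7a5 at 4.4 in GFP-crush replicate 1 and Vars at 4.10 in GFP-crush replicate 4. For Slc7a1 the α9k1 effect with a crush was above that without one by an interaction of 1.0 on the log2 scale in limma (adjusted p = 0.0954). This call was lost in 14 of the 19 fits that left out a library, and with quantile scaling, median-centring or the replicate block.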

How the results depend on the processing

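Counts below are of the 41 genes at an adjusted p under 0.1. The shares of all genes, counted only with the 3 covariates and without covariates, are given above. Without covariates, α9k1-crush against GFP-crush gave 23 higher and 6 lower in place of 0 and 0, α9k1-crush against α9k1-naive 16 and 15 in place of 4 and 7, and the interaction 15 and 13 in place of 1 and 0. With the first component only, these were 16 and 6, 15 and 16, and 10 and 10, and GFP-crush against GFP-naive had 3 higher in place of 5. Fitting only the groups compared gave 0 higher and 4 lower in GFP-crush against GFP-naive, in place of 5 and 8, and 0 higher and 1 lower in α9k1-crush against α9k1-naive. Median-centring gave 7 higher and 5 lower in GFP-crush against GFP-naive, 12 and 4 in α9k1-naive against GFP-naive, and 0 higher and 1 lower in the interaction; quantile scaling gave 0 higher there. Removing the lowest 25% of genes gave 1 higher in α9k1-crush against GFP-crush. The causes were not tested. Median-centring moved the median of all genes in GFP-crush against GFP-naive from -0.08 to 0.06.

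Libraries with the same replicate number did not pair (25 pairs, r from -0.27 to 0.15, median 0.02, 4 over 0.1). The replicate block gave 3 lower in α9k1-naive against GFP-naive in place of 6, 0 higher and 3 lower in α9k1-crush against α9k1-naive, and 0 in the interaction.

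Leaving out 1 library at a time gave 9 to 11 higher and 3 to 8 lower in α9k1-naive against GFP-naive, 0 to 2 higher and 0 to 0 lower in α9k1-crush against GFP-crush, 2 to 6 higher and 6 to 11 lower in GFP-crush against GFP-naive, 1 to 5 higher and 4 to 10 lower in α9k1-crush against α9k1-naive, and 0 to 2 higher and 0 to 1 lower in the interaction. The lowest counts came without GFP-crush replicate 3 or GFP-naive replicate 4 (3 lower in α9k1-naive against GFP-naive), without GFP-crush replicate 2 or GFP-naive replicate 2 (2 higher in GFP-crush against GFP-naive) and without α9k1-naive replicate 4 (1 higher and 4 lower in α9k1-crush against α9k1-naive). Of the 42 called gene values, 39 stayed called without covariates, 34 with median-centring, 27 with the replicate block, 17 of 41 with only the groups compared, and 20 in every fit that left out a library, and none changed sign.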
